A study of Mus musculus with 6 samples.

Results

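The 8 genes described here, Scx, Mkx, Tnmd, Thbs4, Egr1, Egr2, Six2 and Chodl, were grouped as tendon identity genes and taken from 33696 genes by their symbols. Not all of them are restricted to tendon cells. They were followed in single-cell RNA-seq of Achilles tendon from Gli1-CreERT2; Ai9 mice given tamoxifen, in which a cell that had Gli1 promoter activity at the time of tamoxifen, and every descendant of it, keeps a fluorescent reporter. Tissue from uninjured mice and from mice at 7 and 21 days after tenotomy (7 dpi and 21 dpi) was sorted by FACS into reporter-positive (Gli1+) and reporter-negative (Gli1-) cells, which gave 6 libraries, 1 per group. The labels give 24 mice in all, 8 in each cohort, and equal numbers of both sexes. All groups, the uninjured ones included, carried the same alleles and received tamoxifen, and no age is given. The sort marks a lineage and not current Gli1 expression, and the mice behind a library cannot be told apart by label.

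Because every group was 1 library, no test between groups was possible and the spread between mice is unknown. Levels are unique molecular identifiers (UMIs) of a gene per 1000000 UMIs of the same cells (CPM) with exact Poisson 95% intervals, shares carry exact binomial 95% intervals, and log2 ratios carry exact binomial 95% intervals. All of these cover counting error only. The genes were measured in cells that held at least 1 Pdgfra or 1 Scx UMI, which numbered 2244, 5880 and 6371 in the Gli1+ libraries (uninjured, 7 dpi and 21 dpi, the order used throughout) and 5222, 7163 and 6278 in the Gli1- libraries. Scx is itself part of this gate, so its values are also given in the 1774, 4790, 5255, 5108, 6581 and 5529 cells that held Pdgfra.

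The gated cells carried the 4 fibroblast markers Pdgfra, Col1a1, Dcn and Lum at a summed 20111 to 27336 CPM in every library. Median UMIs per gated cell ran from 5947.5 in the Gli1- uninjured library to 11883 in the Gli1- 7 dpi library. The Gli1+ uninjured library stood apart, since 3947 of its 7057 kept cells held Ptprc, the pan-leukocyte gene, against 3 to 28 cells in each of the others. In gated cells the 5 immune markers summed to 254 CPM there and to between 4 and 16 CPM elsewhere. Epidermal markers were highest in the Gli1+ 7 dpi library, at 2270 CPM against 0.0291 to 494 CPM in the other libraries. A UMI of Krt14, a basal keratinocyte keratin, was found in 99.4% of its gated cells, in 48.8% at Gli1+ 21 dpi and in 0% to 13.4% in the other 4 libraries, and the part of this epidermal RNA in the Gli1+ 7 dpi values was not tested. Xist was detected without Y-linked genes in 61.5% of gated cells of the Gli1+ uninjured library, 94.1% at Gli1+ 21 dpi and 94.7% at Gli1- 21 dpi, and in at most 0.014% of gated cells in the other 3 libraries. The labelled balance of sexes was thus not seen in the libraries, 5 of which held cells of almost 1 sex, and the Gli1+ and Gli1- libraries of uninjured tendon differed in sex makeup. Cells of the same sex could be set side by side in 3 of the 4 comparisons over time, those at 7 dpi and that of Gli1+ cells at 21 dpi. For Gli1- cells at 21 dpi, time and sex cannot be told apart, and library goes with time in all 4. Pairs of libraries shared 15 to 32 kept barcodes of their 7057 to 10882 kept cells.

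Tendon cells are held in their identity by a small set of transcription factors. Scx, a basic helix-loop-helix factor, marks tendon progenitors and tenocytes, and Mkx, a homeobox factor, is required for normal collagen fibre growth. Egr1 and Egr2 are zinc-finger factors of the immediate early class, induced within minutes by mechanical and growth-factor signals and able to raise tendon collagen genes, and Six2 is a homeobox factor of embryonic mesenchyme. Among the products on the cell surface and in the matrix, Tnmd is a transmembrane glycoprotein of mature tenocytes, Thbs4 is a secreted pentameric glycoprotein of the tendon matrix, and Chodl is a C-type lectin-like membrane protein.

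The most marked feature of these genes was their unequal level between the sorted populations of uninjured tendon. In the gated cells of uninjured mice, 6 of the 8 genes were at least 2-fold higher in Gli1+ than in Gli1- cells, against 13.9% of the 15154 genes with enough counts to be compared, and none was 2-fold lower, against 4.97%. The median log2 ratio was 2.49 for the 8 genes and 0.15 for all genes. The exceptions were Egr1, at a log2 ratio of -0.39, and Egr2, at 0.40. At 7 dpi 1 gene, Chodl, was 2-fold higher in Gli1+ cells and none was lower, where 4.51% and 2.06% of all genes were. At 21 dpi none of the 8 passed 2-fold in either direction, with 1.79% and 2.22% of all genes past it.

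Scx stood at 111 CPM (106 to 115) in the Gli1+ uninjured library, 90.0 CPM (87.7 to 92.3) at 7 dpi and 98.6 CPM (96.2 to 101) at 21 dpi. In the Gli1- libraries it stood at 17.3 CPM (16 to 18.8), 60.8 CPM (59.2 to 62.4) and 66.3 CPM (64.4 to 68.3). The Gli1- uninjured library was thus far below the other 5, and the Gli1+ excess of uninjured tendon, a log2 ratio of 2.67 (2.54 to 2.80), was 0.57 at both later times. Within Gli1- cells Scx was higher by 1.81 (1.69 to 1.93) at 7 dpi and by 1.94 (1.81 to 2.06) at 21 dpi on the log2 scale. In Gli1- cells that held Pdgfra the levels were 3.57, 40.3 and 40.2 CPM and these ratios were larger, at 3.50 and 3.49. The small deficits of injured against uninjured Gli1+ cells, -0.30 and -0.17, depended on the cells compared. With Y-positive cells on both sides the 7 dpi ratio was -1.07, and with Xist-positive cells the 21 dpi ratio was 0.24. In cells that held Pdgfra, the Gli1+ libraries gave Scx levels of 23.8, 48.7 and 57 CPM, so that the log2 ratios to uninjured were 1.03 and 1.26 with the opposite sign. With TMM scaling (trimmed mean of M values, which weighs all genes) the 21 dpi ratio was also positive, at 0.23.

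The difference between the gates lay in cells with Scx and without Pdgfra. They made up 20.9%, 18.5% and 17.5% of gated Gli1+ cells and 2.18%, 8.13% and 11.9% of gated Gli1- cells. In the Gli1+ libraries these cells held Mkx at 238, 46.1 and 40.1 CPM, against 22.2, 11.6 and 17.4 CPM in cells that held Pdgfra. Chodl was at 219, 92.4 and 43 CPM in them, against 10.9, 8.55 and 8.06 CPM in Pdgfra cells. In every library Tnmd and Thbs4 were also higher in Scx cells without Pdgfra, by log2 ratios of 1.97 to 6.15 and 1.61 to 4.69, whereas Egr1 differed by at most 0.58 in size. These cells were 470 in the Gli1+ uninjured library and held 83.4% of its gated Scx UMIs, a value the gate itself raises, and 76% of its Mkx UMIs.

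Mkx and Tnmd showed like gaps between the sorted populations of uninjured tendon, with Gli1+ over Gli1- log2 ratios of 3.26 and 3.25. Its level was 71.5 CPM (68.1 to 75) in Gli1+ uninjured cells, 16.9 CPM (15.9 to 17.9) at 7 dpi and 21.4 CPM (20.4 to 22.6) at 21 dpi. In Gli1- cells it was 7.44 CPM (6.56 to 8.41), 11.4 CPM (10.7 to 12.1) and 16.7 CPM (15.8 to 17.7). The Gli1+ uninjured library was the single high one, and the Gli1+ 7 dpi and Gli1- 21 dpi libraries were not separated by their counts (log2 ratio 0.02, interval -0.10 to 0.14). Against uninjured cells of the same sort, Mkx was lower by 2.08 and 1.74 on the log2 scale in Gli1+ cells and higher by 0.61 and 1.17 in Gli1- cells. In Gli1+ cells that held Pdgfra the ratios were -0.93 and -0.35, neither past 2-fold, and in Gli1- cells that held it they were 1.98 and 2.52. Cdh5-positive endothelial cells outside the gate held Mkx at 12.1 CPM at Gli1+ 7 dpi. The gated Mkx level there was not separated from theirs (log2 ratio 0.48, interval -0.40 to 1.55). A sense-overlapping transcript, AC148004.2, shares the strand and position of Mkx, and reads from the pair cannot be fully told apart, while Scx lies within the span of Bop1 on the opposite strand.

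Six2 was close to the limit of detection. Its gated counts were 108, 78 and 120 UMIs in the Gli1+ libraries and 21, 75 and 190 UMIs in the Gli1- libraries, or 4.6, 1.19 and 1.72 CPM and 0.611, 0.82 and 2.8 CPM. The uninjured library was the highest of the Gli1+ libraries and the lowest of the Gli1- libraries, and in both sorts the 21 dpi library was above that at 7 dpi. On the log2 scale Six2 was lower by 1.42 (interval -1.81 to -1.03) at 21 dpi in Gli1+ cells and higher by 2.20 (1.54 to 2.92) in Gli1- cells. In cells that held Pdgfra its 21 dpi ratios were -0.53 and 2.66. It was the sole gene of the 8 with a clear Gli1- excess at 21 dpi, a Gli1+ over Gli1- log2 ratio of -0.70 (-1.04 to -0.36), which is less than 2-fold. In Cdh5-positive endothelial cells outside the gate, used as background, 0 to 5 UMIs were counted per library.

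**Figure D1:**
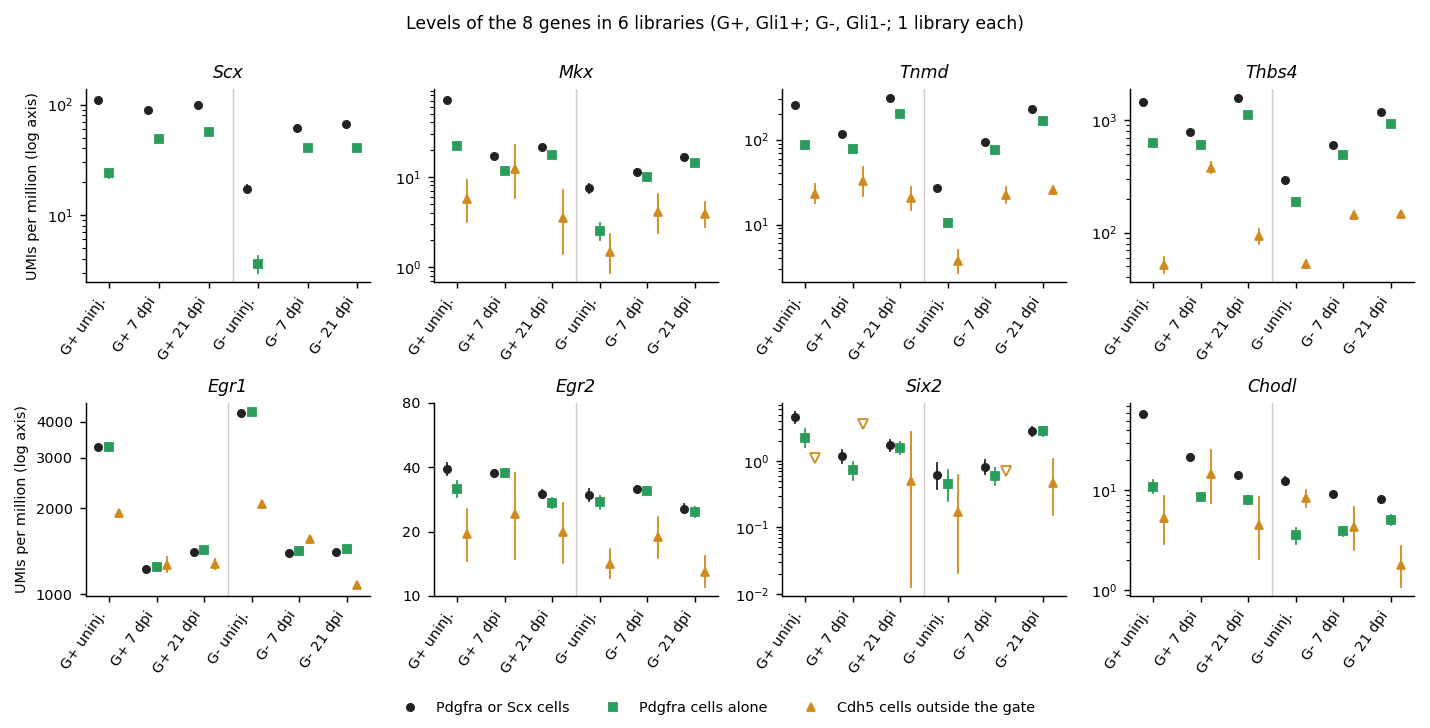
Levels of each gene (UMIs per 1000000, log axis) in the 6 libraries, with 95% counting intervals, in Pdgfra or Scx cells (circles), Pdgfra cells alone (squares) and Cdh5 cells outside the gate (triangles; open triangles mark the floor of 3 counts where none was counted, and Scx has none because the gate removes it). The Gli1- uninjured library is the lowest of the 6 for Scx, Mkx, Tnmd, Thbs4 and Six2, at 17.3, 7.44, 26.8, 293 and 0.611 CPM, and the highest for Egr1, at 4291 CPM. For Six2 it was not separated by its counts from the Gli1- 7 dpi library.

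Tnmd and Thbs4 were above their uninjured level at 21 dpi in both sorts. Tnmd was at 254 CPM (248 to 261) in uninjured Gli1+ cells, 116 CPM (113 to 118) at 7 dpi and 307 CPM (303 to 311) at 21 dpi. In Gli1- cells it was at 26.8 CPM (25.1 to 28.6), 93.4 CPM (91.5 to 95.4) and 229.8 CPM (226 to 233). The 7 dpi library was thus the lowest of the Gli1+ libraries and the uninjured one the lowest of the Gli1- libraries, and in both sorts the 21 dpi library was the highest. The log2 ratios to uninjured were -1.13 and 0.27 in Gli1+ cells. In cells that held Pdgfra the 7 dpi ratio was -0.18, short of 2-fold. In Gli1- cells Tnmd was higher by 1.80 on the log2 scale at 7 dpi and 8.57-fold higher at 21 dpi, the largest ratio over time of the 8 genes. Endothelial cells outside the gate of the Gli1- libraries held less of these genes but were also higher after injury, with Tnmd at 3.69, 22.5 and 25.6 CPM, Mkx at 1.46, 4.06 and 3.85 CPM and Thbs4 at 52.5, 143 and 145 CPM. Those of the Gli1+ libraries held Tnmd at 23.2, 32.7 and 20.4 CPM, Mkx at 5.62, 12.1 and 3.49 CPM and Thbs4 at 51.7, 378 and 92.7 CPM. The part of RNA from other cells in the gated values of either sort was not tested.

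Thbs4 was at 1454 CPM (1439 to 1470), 792 CPM (785 to 799) and 1567 CPM (1558 to 1577) in Gli1+ cells. In Gli1- cells it was at 293 CPM (288 to 299), 595 CPM (589.9 to 599.9) and 1185 CPM (1177 to 1193). As for Tnmd, Gli1+ cells had their low value at 7 dpi while each later Gli1- library was above the one before. The log2 ratios to uninjured were -0.88 and 0.11 in Gli1+ cells and 1.02 and 2.01 in Gli1- cells. For cells with Pdgfra the Gli1+ 7 dpi ratio was -0.06, and over all kept cells of the libraries it was 0.08, in place of -0.88.

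Chodl was highest in the uninjured cells of both sorts. It was at 58.4 CPM (55.4 to 61.6) in uninjured Gli1+ cells, 21.4 CPM (20.3 to 22.6) at 7 dpi and 14.3 CPM (13.4 to 15.2) at 21 dpi. In Gli1- cells it was at 12.4 CPM (11.2 to 13.6), 9.14 CPM (8.53 to 9.78) and 8.15 CPM (7.48 to 8.86). The log2 ratios to uninjured were -1.45 and -2.03 in Gli1+ cells and -0.44 and -0.60 in Gli1- cells, and the Gli1- values changed sign in 3 of 9 and 2 of 8 alternative settings. In Gli1+ cells that held Pdgfra the ratios were -0.35 and -0.44, which ended both 2-fold differences. After injury Chodl had a higher Gli1+ over Gli1- ratio than the other 7 genes, with log2 ratios at 7 and 21 dpi of 1.23 (1.11 to 1.36) and 0.81 (0.66 to 0.96). Without cells that held Cdh5, Ptprc, Epcam or Krt14 its 21 dpi ratio was 0.46, below the 0.63 of Scx and the 0.48 of Tnmd.

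The upstream regions of Chodl and Thbs4 are printed because both genes were co-detected with Scx, a factor of the class that binds E-boxes. Capitals mark the E-box letters CANNTG. The regions are from RefSeq on GRCm38.p6, end at the base before the annotated start and overlap no exon. That of Chodl is chr16:78930698-78930947 on the plus strand, and the part of the Thbs4 region with its match is chr13:92794819-92794948 on the minus strand.
Chodl: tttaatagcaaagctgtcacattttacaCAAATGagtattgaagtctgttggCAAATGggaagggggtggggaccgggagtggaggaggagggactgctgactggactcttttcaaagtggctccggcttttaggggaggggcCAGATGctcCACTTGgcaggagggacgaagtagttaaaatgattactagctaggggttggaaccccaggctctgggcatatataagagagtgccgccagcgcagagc
Thbs4: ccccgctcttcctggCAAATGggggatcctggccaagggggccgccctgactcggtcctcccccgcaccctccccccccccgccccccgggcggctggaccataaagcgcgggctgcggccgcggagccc
The Chodl window held 4 matches and the Thbs4 window 1, at 110 to 115 bases before the start. The same letters occurred in 66.2% of 32851 RefSeq windows of 250 bases, searched on both strands, so that a match is common. Of the 5 genes with a window in the table, Tnmd and Six2 held none of the 4 motifs searched, which were the E-box, the CArG box, GCGNGGGCG and TATAAA.

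Over time, counts of genes past 2-fold summarise the group. In Gli1+ cells 5 of the 8 genes, Mkx, Tnmd, Egr1, Six2 and Chodl, were at least 2-fold lower at 7 dpi than in uninjured cells and none was higher, where 20.9% and 11.5% of 16230 genes were. At 21 dpi 4 were lower, Tnmd no longer among them, and none was higher, against 21.8% and 6.52% of all genes. The median log2 ratio of the 8 genes was -1.28 at 7 dpi and -0.80 at 21 dpi, and that of all genes -0.21 and -0.37. In Gli1- cells 3 genes, Scx, Tnmd and Thbs4, were 2-fold higher at 7 dpi and 1, Egr1, was lower, against 13.9% and 15.8% of all genes. At 21 dpi 5 were higher, with Mkx and Six2 added, and Egr1 was lower, against 12.4% and 16%. The medians of the 8 genes were 0.52 and 1.55, beside -0.08 and -0.12 for all genes.

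The comparisons over time share their uninjured library within each sort. Scaling by TMM shifted all log2 ratios of Gli1+ cells to uninjured by 0.26 at 7 dpi and 0.40 at 21 dpi, and the Gli1+ over Gli1- ratios of uninjured cells by -0.23. Of the 56 member ratios, 3 took the other sign with it, those of Egr2 at both times and of Scx at 21 dpi in Gli1+ cells. It also brought Tnmd at Gli1+ 7 dpi to -0.88 and Egr1 at Gli1+ 21 dpi to -0.83, both short of 2-fold. The counts in Gli1+ cells turned on which cells were compared. At 7 dpi, in place of 5 genes lower and none higher, cells that held Pdgfra gave 2 lower, Egr1 and Six2, and 1 higher, Scx, where 19.5% and 13.3% of all genes were. All kept cells gave 2 lower and none higher, where 26% and 13.5% were. At 21 dpi, in place of 4 lower and none higher, cells that held Pdgfra gave Egr1 lower and Scx and Tnmd higher, with log2 ratios of 1.26 and 1.21 for the latter, where 18.8% of all genes were lower and 7.9% higher. All kept cells gave Chodl lower and Tnmd and Thbs4 higher at 21 dpi, where 26.6% and 10.2% of all genes were. The 6-gene excess of uninjured Gli1+ cells was 5 over all kept cells (19.4% of all genes), where Egr1 was 2-fold lower (12.8%). It was 6 in cells that held Pdgfra, where 11.1% of all genes were higher and 4.85% lower. In cells without Cdh5, Ptprc, Epcam or Krt14 it was also 6, but the share of all genes was not computed for them. The log2 ratios of Scx, Mkx and Tnmd in those cells were 3.03, 3.82 and 3.49.

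**Figure D2:**
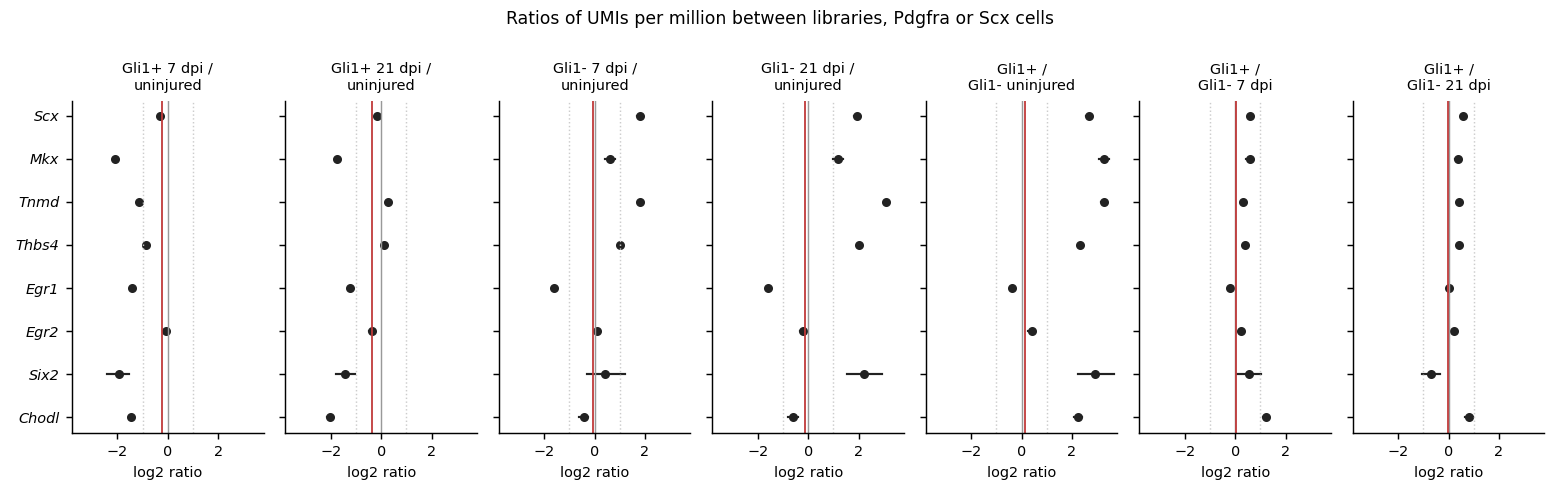
Log2 ratios of CPM between libraries for the 8 genes (dots, lines are 95% counting intervals, many narrower than the dot) in 7 comparisons of Pdgfra or Scx cells. The red line is the median of all genes compared, and dotted lines mark 2-fold. For Gli1+ over Gli1- cells, 6 of the 8 dots lie right of the upper dotted line in uninjured tendon and none does at 21 dpi.

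Sex could be examined within the Gli1+ uninjured library, where 1379 gated cells held Xist without Y-linked UMIs and 542 the reverse. Tnmd was at 177 CPM in the former and 408 CPM in the latter, and Scx at 82 and 174 CPM. The log2 ratios of Y-positive over Xist-positive cells were 1.09 (0.97 to 1.21) for Scx, 0.80 (0.64 to 0.96) for Mkx, 1.21 (1.13 to 1.29) for Tnmd and 0.63 (0.59 to 0.66) for Thbs4. Chodl, at -0.16 (-0.35 to 0.03), and Egr2, at 0.02 (-0.20 to 0.25), were not separated by their counts. In the Gli1- uninjured and both 7 dpi libraries 71.9% to 77.1% of gated cells were Y-positive and at most 0.014% Xist-positive, and restricting the Gli1+ uninjured library to such cells gave Gli1+ over Gli1- log2 ratios of 3.48 for Scx and 4.14 for Tnmd. The number of mice behind these cells is unknown, so these ratios cannot be set against the spread between mice. With Y-positive cells on both sides, 7 of the 8 genes, all but Egr2, were 2-fold lower at Gli1+ 7 dpi and none was higher, where 18.1% and 12.1% of all genes were in the same cells, with log2 ratios of -1.94 for Tnmd, -1.27 for Thbs4 and -2.57 for Mkx. With Xist-positive cells on both sides, Mkx, Egr1, Six2 and Chodl were 2-fold lower at Gli1+ 21 dpi and none was higher, where 19.5% and 7.14% of all genes were.

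Egr1 behaved unlike the other genes in both level and distribution. It was at 3279 CPM (3256 to 3303), 1223 CPM (1215 to 1231) and 1404 CPM (1396 to 1413) in Gli1+ cells, and at 4291 CPM (4269 to 4313), 1396 CPM (1388 to 1404) and 1404 CPM (1395 to 1413) in Gli1- cells. Both uninjured libraries were above all 4 libraries from injured tendon, and the 21 dpi libraries of the sorts were level (log2 ratio 0.00, interval -0.01 to 0.01). The log2 ratios to uninjured were -1.42 and -1.22 in Gli1+ cells and -1.62 and -1.61 in Gli1- cells. Endothelial cells outside the gate were likewise highest in the uninjured library of each sort, with 1916, 1267 and 1275 CPM (Gli1+) and 2061, 1564 and 1077 CPM (Gli1-).

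Egr2 varied little over all gated cells. Its level was 39.1 CPM (36.6 to 41.7), 37.4 CPM (36 to 39) and 30.0 CPM (28.7 to 31.3) in Gli1+ cells and 29.6 CPM (27.8 to 31.5), 31.5 CPM (30.4 to 32.7) and 25.6 CPM (24.4 to 26.8) in Gli1- cells. No ratio over time exceeded 0.38 in size on the log2 scale, and 3 neighbouring pairs in the order of the 6 libraries were not separated by their counts. In endothelial cells outside the gate it was at 13 to 24.2 CPM, so that gated cells were higher by 1.5-fold to 2.09-fold. At Gli1+ 7 dpi the gated level was not separated from theirs by its counts (log2 ratio 0.63, interval -0.00 to 1.34). Of the 19 other early genes fixed for comparison, which include Fos, Jun, Atf3, Ier2 and Nr4a1, 9 were 2-fold lower at Gli1+ 7 dpi and 12 at Gli1- 7 dpi, where 20.9% and 15.8% of all genes were, and none was higher in either. At 21 dpi 1 was lower and none higher in Gli1+ cells, where 21.8% of all genes were lower. In Gli1- cells 10 were lower and 1 higher at 21 dpi, where 16% and 12.4% of all genes were. The higher one was Fosl1, a Fos relative, at 9.25, 18.3 and 32.1 CPM. Klf4, a zinc-finger factor, was at 1527, 509 and 901 CPM in Gli1+ cells. Egr3, a relative of Egr1 and Egr2, was at 49.8, 37.4 and 16.7 CPM.

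The upstream regions of Egr2 are printed because the gene belongs to the early class, whose promoters are known for CArG boxes, the sites of serum response factor. RefSeq gives 5 starts on GRCm38.p6, and capitals mark the CArG box upstream of the second start, chr10:67537466-67537565, and of the third, chr10:67537719-67537868, both on the plus strand and 63 to 72 bases before the start.
Egr2 start 2: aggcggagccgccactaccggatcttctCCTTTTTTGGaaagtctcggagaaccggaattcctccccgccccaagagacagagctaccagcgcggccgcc
Egr2 start 3: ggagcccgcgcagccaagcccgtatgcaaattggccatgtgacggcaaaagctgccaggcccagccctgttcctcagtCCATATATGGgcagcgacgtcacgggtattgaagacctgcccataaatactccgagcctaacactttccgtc
A CArG box occurred in 1.47% of all 32851 windows. The match is a description of the letters and was not linked to any measurement of binding.

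Detection per cell was compared after each cell was thinned to 2000 UMIs, which left out 19 to 143 gated cells per library. Scx was then found in 12.9%, 15.1% and 13.3% of gated Gli1+ cells and 1.54%, 8.76% and 8.82% of gated Gli1- cells (28.5%, 36.7%, 35.8%, 3.2%, 26.4% and 28% before thinning). In cells that held Pdgfra the thinned Scx shares were 2.73%, 7.4% and 6.66% (Gli1+) and 0.342%, 5.45% and 4.91% (Gli1-), with the uninjured library lowest in both sorts. Scx has no endothelial share because the gate removes its cells. Tnmd was found in 18.2%, 15.4% and 24.3% and in 2.62%, 11.4% and 20.2%. Its share in endothelial cells outside the gate was 0.424% to 4.02%, well below the gated share in every library. Median depths before thinning were 5947.5 to 11883 UMIs in gated cells and 2905 to 5971 UMIs in these endothelial cells.

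Shares of Thbs4 at 7 dpi were above the uninjured ones in gated and endothelial cells alike. It was found in 33.6% of uninjured Gli1+ cells, 49.5% at 7 dpi and 52.2% at 21 dpi, with 8.92, 3.93 and 6.15 UMIs per cell that held it. In Gli1- cells the shares were 12.1%, 38.7% and 46.3%. The endothelial share was 3.37% in the Gli1+ uninjured library and 34.7% (26.2% to 44.1%) at Gli1+ 7 dpi, and 18.4% at Gli1- 7 dpi. A part of the 7 dpi shares thus lies at the level found in endothelial cells. Whether these cells expressed Thbs4 or held RNA of other cells was not tested. Direction was therefore not read from the Thbs4 shares.

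For Mkx the shares were 9.66%, 3.48% and 4.52% (Gli1+) and 1.06%, 2.13% and 3.2% (Gli1-). At Gli1+ 7 dpi the endothelial share of 2.54% (0.527% to 7.25%) took in the gated value, which is not distinguishable from background at this depth, and the intervals also overlapped at Gli1- 7 dpi. Chodl was found in 6.7%, 4.5% and 2.28% and in 1.48%, 1.79% and 1.07%. Its intervals overlapped those of endothelial cells in 4 libraries. The gated and endothelial shares were 1.48% (1.16% to 1.85%) and 1.04% (0.686% to 1.51%) for Gli1- uninjured, and 4.5% (3.98% to 5.07%) and 1.69% (0.206% to 5.99%) for Gli1+ 7 dpi. Likewise, 2.28% at Gli1+ 21 dpi and 1.79% at Gli1- 7 dpi stood beside endothelial shares of 1.18% and 0.774%. The Chodl level at Gli1+ 7 dpi, where its Gli1+ excess passed 2-fold, was not separated from that of endothelial cells, with a log2 ratio of 0.56 (-0.25 to 1.52). Nor was the Mkx level in that library, at 0.48 (-0.40 to 1.55). Egr2 was found in 4.75% to 6.74% of gated and 2.54% to 4.71% of endothelial cells, with overlapping intervals in the 3 Gli1+ libraries and at Gli1- 7 dpi. Six2 was found in 0.0394% to 0.989% of gated cells and in 0 or 1 endothelial cells per library, and its intervals were apart only at Gli1- 21 dpi. Egr1 was found in 83.8% to 96.2%, with 72.7% to 88.2% of endothelial cells holding it. Leukocytes, present in number in the Gli1+ uninjured library alone, held Tnmd at 3.45 CPM, Thbs4 at 22 CPM, Mkx at 1.8 CPM, Chodl at 1.12 CPM and Egr1 at 358 CPM outside the gate.

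**Figure D3:**
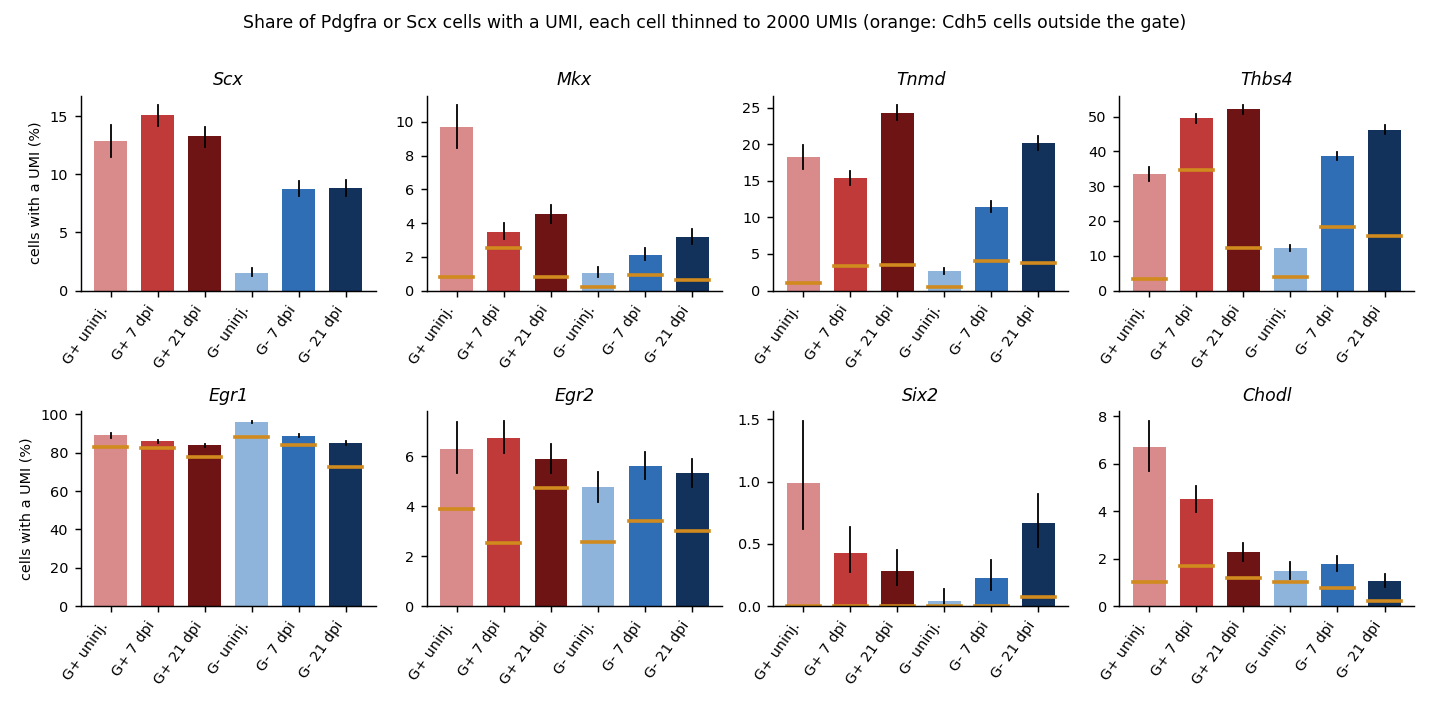
Share of Pdgfra or Scx cells with a UMI of each gene after thinning to 2000 UMIs (bars from 0, lines are exact binomial 95% intervals), with the share in endothelial cells outside the gate as an orange line. Tnmd bars run from 2.62% to 24.3% over lines of 0.424% to 4.02%, whereas the Thbs4 line reaches 34.7% at Gli1+ 7 dpi.

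The genes of the tenocyte programme occurred in the same cells more often than their shares alone would give. Scx and Tnmd were found together in 197 of 2225 thinned Gli1+ uninjured cells, where 52.1 were expected, a ratio of 3.78 (3.29 to 4.32). The ratio was 2.66 and 2.24 in the injured Gli1+ libraries and 3.08 and 2.41 in the injured Gli1- libraries, and fewer than 5 cells were expected in the Gli1- uninjured library. In cells that held Pdgfra, where Scx plays no part in the gate, the ratio was 2.47 to 2.81 in the 4 libraries from injured tendon. In all gated cells Scx and Mkx were together at 2.3 to 3.44 times expectation in 5 libraries, Scx and Chodl at 2.75 to 6.8 times and Mkx and Tnmd at 2.32 to 3.5 times. Cells with Pdgfra gave 1.88 to 3.57 for Scx and Mkx and 1.48 to 3.08 for Mkx and Tnmd, each with 3 of 4 intervals above 1. Scx and Chodl could be computed in 1 library there, at 3.98.

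Thbs4 was co-detected with Scx at 2.68, 1.54 and 1.6 times expectation in Gli1+ cells and at 7.28, 1.82 and 1.68 times in Gli1- cells, and with Tnmd at 1.49 to 5.63 times. Every interval lay above 1. Because such a ratio cannot exceed the inverse of the larger share, and Thbs4 shares differed widely, the ratios were not compared between libraries. Egr1 was found in 83.8% to 96.2% of these cells, which leaves its ratios almost no room above 1, so its pairs were not read. Egr2 was co-detected with Chodl at 1.7 to 2.56 times in 4 libraries and with Scx at 0.836 to 1.61 times in 5, of which 1 interval lay above 1. The excess of Egr2 with Chodl was not seen in the single library with enough Pdgfra cells to compute it (0.721).

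At least 2 of Scx, Mkx, Tnmd and Thbs4 were found in 21.3%, 18.3% and 26.1% of thinned Gli1+ cells and in 2.5%, 11.8% and 20.1% of thinned Gli1- cells. Endothelial cells outside the gate gave 0.231% to 1.69%, in a set from which Scx cells are absent by construction. Of the thinned Scx cells, Tnmd was found in 68.9%, 40.8% and 54.6% in the Gli1+ libraries and in 61.5%, 35.1% and 48.8% in the Gli1- libraries. Fmod, a small proteoglycan of the tendon matrix, was found in 90.6%, 61.2% and 79.9% and in 84.6%, 47.2% and 75.9% of them. Ly6a, a marker of tendon stem and progenitor cells, was found in 14.7%, 36.4% and 40.9% and in 26.9%, 48.4% and 54.7%. From uninjured to 7 dpi the shares of Tnmd and Fmod were lower and that of Ly6a higher, and from 7 to 21 dpi all 3 were higher. Sox9, a factor of cartilage and tendon attachment, was found in 1.75%, 12.6% and 14.9% and in 3.85%, 13.3% and 14.5% of Scx cells, and Gli1 transcript in at most 0.552%. In gated cells without Scx the Sox9 shares were 9.8%, 12.4% and 11.8% and 6.48%, 11.3% and 10.5%, close to those of Scx cells after injury. Tnmd was found in 1.7% to 19.7% and Ly6a in 56% to 76.8% of the gated cells without Scx, below and above the Scx cells of every library. Because the gate admits a cell without Scx through Pdgfra alone, the gate takes part in these contrasts. They were not repeated in cells that held Pdgfra.

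**Figure D4:**
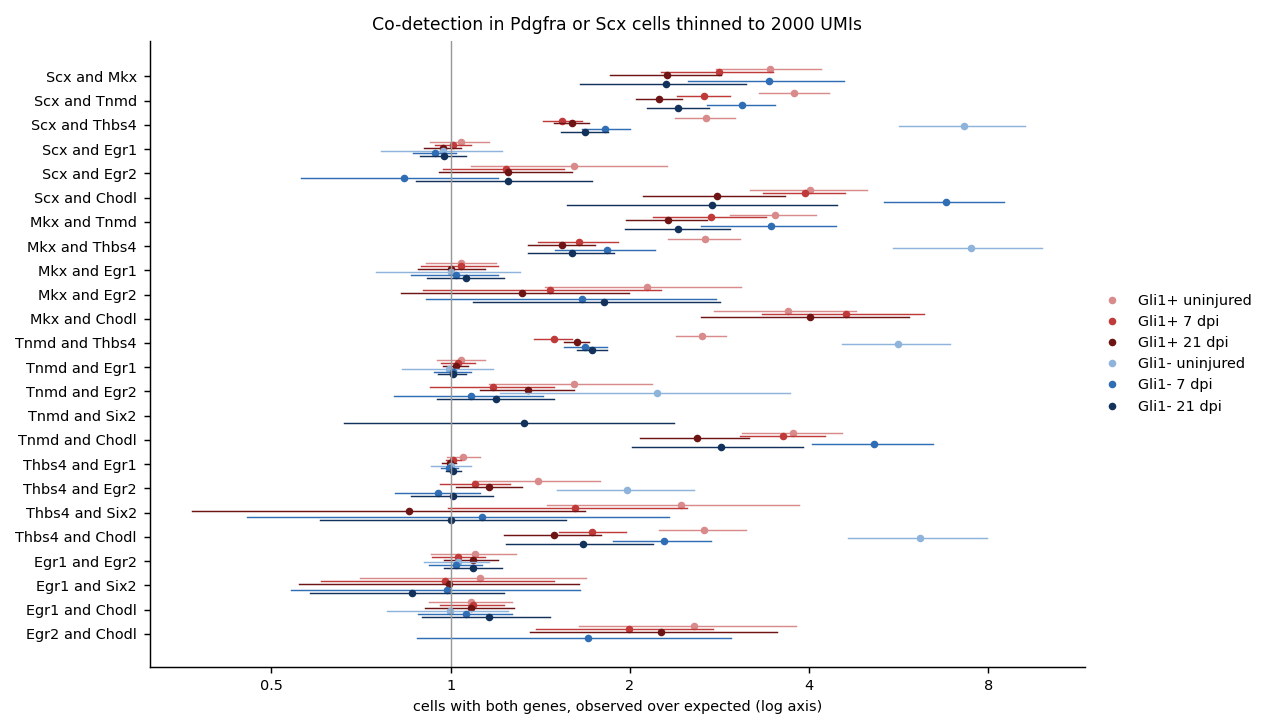
Cells holding both genes of a pair, observed over the number expected from the shares of each gene (log axis, lines are 95% counting intervals), in thinned Pdgfra or Scx cells of the 6 libraries. Pairs among Scx, Mkx, Tnmd, Thbs4 and Chodl lie at 1.49 and above. Pairs with Egr1 cannot lie far above 1, since 83.8% to 96.2% of cells held it.

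The genes were next read in cells chosen by Fmod. Cells with Fmod at 2000 CPM or more of their own UMIs (Fmod-high) were 471, 297 and 905 of the gated Gli1+ cells (21%, 5.05% and 14.2%) and 101, 128 and 672 of the gated Gli1- cells (1.93%, 1.79% and 10.7%). They held 74.9%, 24.5% and 52.1% of the gated Tnmd UMIs of the Gli1+ libraries and 51.5%, 13% and 41.3% of those of the Gli1- libraries. Because the gate admits a cell without Pdgfra through Scx alone, Scx takes part in this choice, and cells that held Pdgfra were 31%, 24.6% and 50.9% of the Fmod-high Gli1+ cells and 36.6%, 37.5% and 58.5% of the Gli1- ones. The same threshold was therefore also applied to all kept cells, with no gate, which gave 646, 401 and 1280 Gli1+ and 158, 152 and 861 Gli1- cells. That set was added after the gated values were known.

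Within Fmod-high cells the gap between the sorts of uninjured tendon was small or reversed. Scx was at 359.5 CPM in Gli1+ and 459 CPM in Gli1- Fmod-high cells, a log2 ratio of -0.35 (-0.53 to -0.17). Thbs4 was at 5481 and 5557 CPM, a log2 ratio of -0.02 (-0.07 to 0.03), Mkx at 280.5 and 236 CPM, and Tnmd at 963 and 722 CPM. None of the 8 genes differed by 2-fold between Gli1+ and Gli1- uninjured Fmod-high cells, where 8.63% of all genes were higher and 2.28% lower. None did in the ungated set, for which the share of all genes was not computed. In the other gated cells 6 were higher and none lower, where 13.2% and 4.51% of all genes were, with Scx at 49.1 and 8.72 CPM (log2 ratio 2.49) and Tnmd at 79.6 and 13.3 CPM (log2 ratio 2.59). In the ungated set Scx was at 293 and 344 CPM, a log2 ratio of -0.24 (-0.41 to -0.05), and Tnmd at 957 and 704 CPM. The kept cells outside the ungated set, which include leukocytes and endothelial cells, did not repeat the count of 6. In them Scx was at 15.9 and 5.58 CPM and Tnmd at 28.1 and 10.2 CPM. Thbs4, at 169 and 139 CPM, and Chodl, at 13.5 and 10.2 CPM, were short of 2-fold. Egr1 was lower, at 1487 and 3623 CPM. This comparison of libraries within Fmod-high cells was added after the values over all gated cells were known.

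Over time the genes took different courses in Fmod-high cells. At 21 dpi 4 of the 8 were 2-fold lower in Gli1+ cells, Mkx, Egr1, Six2 and Chodl, and 5 in Gli1- cells, Scx, Mkx, Egr1, Egr2 and Chodl, where 19.2% and 12% of all genes were. None was 2-fold higher, against 7.4% and 10.4%. In the Gli1+ Fmod-high cells that held Pdgfra the count at 21 dpi was 2 lower, Mkx and Six2, and none higher (13.5% and 7.96% of all genes). At 7 dpi these cells gave none lower and 2 higher, Scx and Chodl (15.4% and 9.96%). The whole Fmod-high set gave 2 lower and none higher at 7 dpi (16.4% and 7.87%). Egr1 had log2 ratios of -1.35 and -1.18, and Egr2 of -0.15 (-0.38 to 0.09) and -1.50 (-1.92 to -1.06). Six2 had -2.26 (-2.97 to -1.59) and -0.86 (-2.02 to 0.54). The Mkx level was 280.5, 133 and 62.8 CPM for Gli1+ and 236, 121 and 49.7 CPM for Gli1-, so that the 21 dpi log2 ratios were -2.16 (-2.30 to -2.02) and -2.24 (-2.52 to -1.97). Chodl was at 185, 296 and 37.8 CPM and at 286, 267 and 37.2 CPM, lower at 21 dpi by 2.29 and 2.94 on the log2 scale. Both genes were thus lowest at 21 dpi in either sort, while Tnmd was not. Tnmd was at 963, 1008 and 1169 CPM and at 722, 1058 and 839.9 CPM, with 21 dpi log2 ratios of 0.28 (0.23 to 0.33) and 0.22 (0.08 to 0.36). Thbs4 was at 5481, 5513 and 4555 CPM and at 5557, 6335 and 3486 CPM. Its 21 dpi log2 ratios, -0.27 (-0.29 to -0.24) and -0.67 (-0.72 to -0.62), were negative, unlike those over all gated cells. Scx was highest at 7 dpi, at 582 and 564 CPM, and lowest at 21 dpi, at 265 and 194 CPM. In the ungated set the 21 dpi log2 ratios were -2.01 and -2.16 for Mkx, -1.99 and -3.04 for Chodl and 0.23 and 0.21 for Tnmd, and Scx was again highest at 7 dpi. In the Fmod-high Gli1+ cells that held Pdgfra, Mkx was at 154, 77.2 and 55.9 CPM, a 21 dpi log2 ratio of -1.46 (-1.71 to -1.21). Chodl was at 36.4, 197 and 20.1 CPM in them, short of 2-fold at 21 dpi with a log2 ratio of -0.86, and Scx at 165, 389 and 199.9 CPM was lowest in uninjured cells. The Gli1- uninjured and 7 dpi libraries held under 50 such cells.

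In the other gated cells Scx, Mkx and Tnmd were higher after injury in the Gli1- sort. Scx was at 8.72, 54.9 and 50.1 CPM there, Mkx at 2.99, 10.1 and 12.5 CPM and Tnmd at 13.3, 82.2 and 152 CPM. Mkx at 21 dpi was thus 2.06 higher on the log2 scale in Gli1- cells outside the Fmod-high set and 2.24 lower inside it. Chodl outside the set was at 7.03, 6.14 and 4.45 CPM. The Fmod-high set holds at most 21% of the gated cells, and its own share changed between libraries, so a value over all gated cells joins both.

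**Figure D5:**
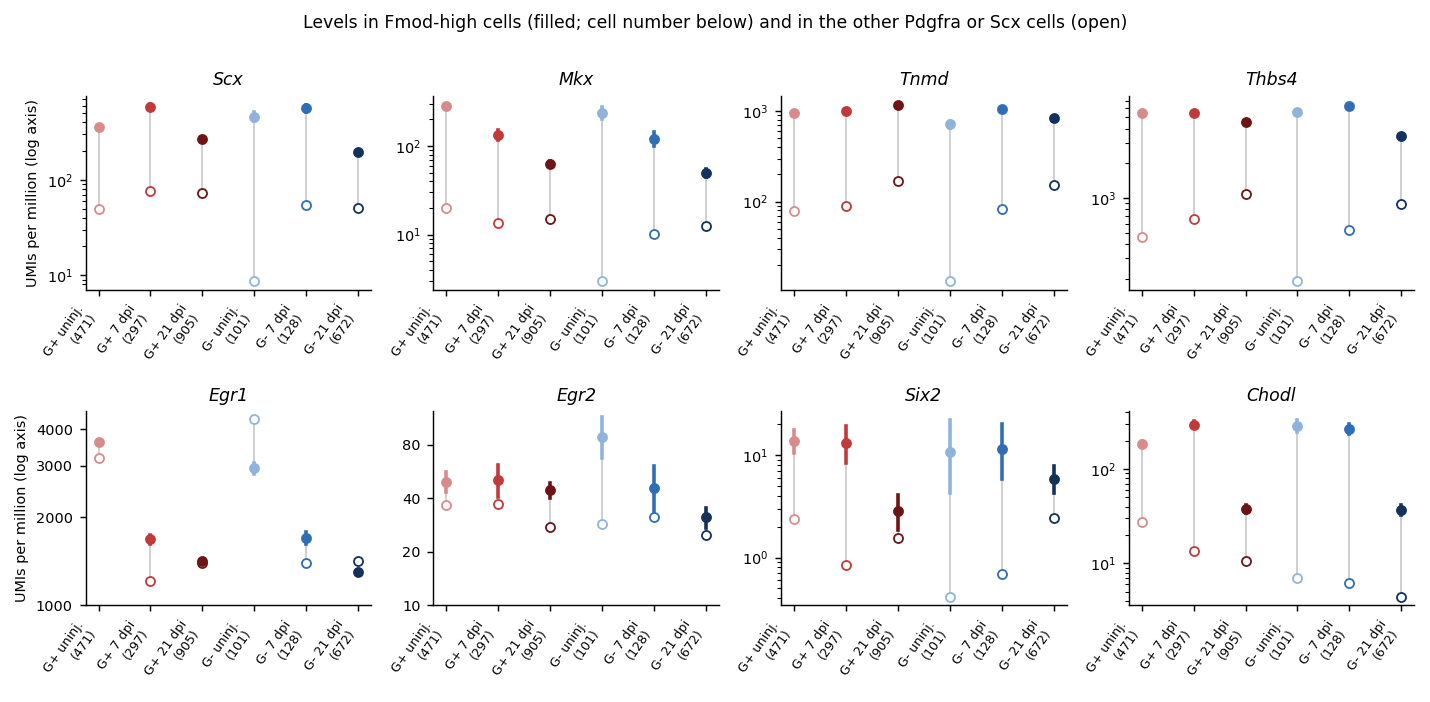
Levels of each gene (UMIs per 1000000, log axis) in Fmod-high cells (filled circles with 95% counting intervals, number of cells under each library) and in the other Pdgfra or Scx cells (open circles). Filled circles for Mkx and Chodl are lowest at 21 dpi in both sorts, at 62.8 and 49.7 CPM and at 37.8 and 37.2 CPM, while those for Tnmd lie between 722 and 1169 CPM in all 6 libraries.

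Other sets were drawn from cells that held Pdgfra, so that none of the 8 genes took part in the choice. Cells with Mki67 or Top2a, genes of dividing cells, were 3.89%, 27.2% and 6.47% of the Pdgfra cells in Gli1+ libraries and 20.5% and 6.19% in the injured Gli1- libraries. Chodl was lower in them by 0.98 to 1.95 on the log2 scale in the 4 injured libraries, and its ratio in the Gli1+ uninjured library was -0.52 (-1.76 to 0.48). Tnmd was lower by 0.25 to 2.31 and Egr1 by 0.27 to 1.11 in these 5 libraries. Scx and Mkx went both ways. The log2 ratio of Scx ran from -0.96 in the Gli1+ uninjured library to 0.27 (0.16 to 0.37) at Gli1- 7 dpi. That of Mkx ran from -0.31 at Gli1+ 21 dpi to 0.26 (0.04 to 0.47) at Gli1- 7 dpi. Cells with 5 or more UMIs of Col2a1, the main cartilage collagen, reached 50 only at 21 dpi, with 107 Gli1+ and 154 Gli1- cells. In them Thbs4 was at 671 and 381 CPM, against 1129 and 942 CPM in the other Pdgfra cells, and Tnmd at 129 and 118 CPM, against 205 and 167 CPM. Six2 was at 6 CPM in the Gli1+ cells of this set, from 11 UMIs, and 1.42 CPM outside it, while the Gli1- cells gave 3.9 and 2.78 CPM, a log2 ratio of 0.49 (-0.60 to 1.41). In cells with Pi16 or Dpp4, genes of adventitial fibroblasts, Scx was lower by 0.41 to 0.63 on the log2 scale in the injured libraries. The Scx ratios of the uninjured libraries were -0.49 (-0.77 to -0.22) and -0.36 (-0.91 to 0.18). Drawn from all kept cells instead, the uninjured ratios were 1.14 and 0.68, so the direction depended on the cells compared. Thbs4 was higher in the Pi16 or Dpp4 set of Pdgfra cells by 0.35 and 0.50 at 21 dpi and by 1.65 in the Gli1- uninjured library, and its ratio in the Gli1+ uninjured library was -0.78.

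UMIs of the genes were gathered in few cells where the genes were low overall. The top 1% of gated cells held 72.8% of Scx UMIs in the Gli1- uninjured library and 13.3% to 22.2% in the other 5. For Mkx they held 72.3% in that library and for Tnmd 59.9%. For Egr1 they held 3.44% to 4.08% in these libraries' gated cells, a nearly even spread.

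The genes whose levels were most like a member's, by the lowest log2 ratio over the 6 libraries between thinned cells with and without it, were ranked for each member. For Scx they were Col22a1 (2.70), Ptx4 (2.70), Kirrel3 (2.39), Chodl (2.30) and Cilp2 (2.03), among 1356 genes compared. For Tnmd they were Ptx4 (3.43), Kera (3.22), Cilp2 (3.09), Chodl (2.90) and Kirrel3 (2.44), and for Thbs4 Ptx4 (4.02), Cilp2 (3.04), Kera (2.87), Angptl7 (2.63) and Chodl (2.59). For Mkx they were Kirrel3 (2.22), Angptl7 (2.06), Cilp2 (1.92), Fmod (1.64) and Tnmd (1.57). For Chodl they were Ptx4 (4.05), Col22a1 (3.98), Kirrel3 (3.94), Thbs4 (1.98) and Tnmd (1.80). Egr1 had Ccl11 (1.02), Ikzf4 (0.87), Chrm3 (0.86), Rtn1 (0.85) and Zfp36 (0.80), and no gene reached 0.26 for Egr2, whose first was Gadd45b (0.25). Too few cells held Six2 to rank any gene. A gene was ranked only if it had at least 20 UMIs in the cells that held the member, so genes low in those cells could not enter. Gated cells without any Scx UMI all held Pdgfra, so the gate takes part in the rankings. No ranking in cells that held Pdgfra is given here. These are descriptions over cells of the same 6 libraries, which share depth and free RNA.

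The 24 tendon matrix genes fixed for comparison differed in direction among themselves. At Gli1+ 7 dpi 12 were 2-fold higher and 7 lower, where 11.5% and 20.9% of all genes were, and at 21 dpi 12 were higher and 2 lower, where 6.52% and 21.8% were. In Gli1- cells 15 were higher and 3 lower at 7 dpi (13.9% and 15.8% of all genes), and 18 and 2 at 21 dpi (12.4% and 16%). Tnc, a glycoprotein of remodelling matrix, was at 117, 1911 and 859.6 CPM in Gli1+ cells and 25.1, 1727 and 915 CPM in Gli1- cells. Postn, a matricellular protein, was at 258, 3215 and 1705 CPM in Gli1+ cells, and the fibrillar collagen gene Col3a1 at 1264, 12842 and 12658 CPM. Chad, a leucine-rich repeat protein of cartilage and tendon, was at 412, 15.5 and 73.3 CPM in Gli1+ cells, and Pcolce2, an enhancer of procollagen processing, at 433, 39 and 85 CPM. The list thus held genes far above and far below their uninjured level in the same libraries. The values of this and of the other lists are of Pdgfra or Scx cells, and none are given here for cells that held Pdgfra.

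Of the 9 genes of TGF beta input, a pathway known to induce Scx, 1 was 2-fold higher and 3 lower at Gli1+ 7 dpi, where 11.5% and 20.9% of all genes were, and none passed 2-fold at 21 dpi, where 6.52% and 21.8% were. The ligand gene Tgfb2 was at 164, 372 and 222 CPM in Gli1+ cells and Tgfb1 at 67, 25 and 37.1 CPM. The receptor gene Tgfbr1 was at 163, 48.7 and 82.1 CPM. In Gli1- cells none was higher and 1 lower at 7 dpi (13.9% and 15.8% of all genes), and 1 was higher and 1 lower at 21 dpi (12.4% and 16%). Among 12 relatives of the 8 genes, 3 were higher and 2 lower at Gli1+ 7 dpi, beside the same shares of all genes. Cnmd, the relative of Tnmd in cartilage, was at 0.98, 4.29 and 12.3 CPM in Gli1+ cells and 1.02, 7.99 and 37.2 CPM in Gli1- cells. Comp, a relative of Thbs4, was at 772, 190.0 and 613 CPM in Gli1+ cells and 116, 174 and 686 CPM in Gli1- cells, with its low Gli1+ value at 7 dpi as for Thbs4.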

How the data were processed

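Chromium Single cell 3' v3 libraries of sorted Gli1+ and Gli1- cells were deposited by the authors as unnormalised UMI counts per gene and barcode. The labels name Cell Ranger 3.1.0, STAR and mm10, whereas the matrix headers name Cell Ranger 9.0.0, and which made the counts is not settled here. From these counts, barcodes with at least 200 genes, 1000 UMIs, a log10 genes per log10 UMI ratio above 0.7 and under 5% mitochondrial and hemoglobin UMIs were kept, after the study's methods, and doublets were removed by Scrublet scores (Scanpy 1.11.5) at 0.8% per 1000 cells in place of DoubletFinder. Kept cells numbered 7057 to 10882 per library, with 53564928 to 107887022 UMIs. Counts of the gated cells were summed per library and divided by their total. Intervals were computed with SciPy 1.17.1. Their coding was checked on counts simulated with the independence that they assume, so the gathering of UMIs in few cells was not covered. TMM factors were taken from edgeR 4.0.16 and no edgeR test was run. All 8 genes are named, and list genes are the 2 highest and 2 lowest by log2 ratio of each list at each time in Gli1+ cells. The 5 most alike genes per member had at least 20 UMIs in the thinned cells with that member in every library. All genes with at least 50 UMIs in a pair of libraries formed the background. The genes and lists were chosen with earlier results of these data known, and the endothelial set outside the gate the ratios within Fmod-high cells and the sets drawn from Pdgfra cells or from all kept cells were added after seeing the data. Alternatives covered cell filters, doublets, gates, scaling, cell weighting, low counts, sex of cells, totals and thinning depth.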

Additional observations from a re-analysis of the deposited data

Results flagged for a closer look

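With 1 library per group, 7 values were picked out because the Gli1+ and Gli1- cells lay on opposite sides of their uninjured level with neither counting interval reaching 0, and these differences were not tested. At 7 dpi the Gli1+ minus Gli1- difference of log2 ratios to uninjured was -2.11 for Scx (-0.30 and 1.81), -2.69 for Mkx (-2.08 and 0.61), -2.94 for Tnmd (-1.13 and 1.80) and -1.90 for Thbs4 (-0.88 and 1.02). At 21 dpi it was -2.10 for Scx (-0.17 and 1.94), -2.90 for Mkx (-1.74 and 1.17) and -3.62 for Six2 (-1.42 and 2.20).

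The Scx pair at each time rests on a Gli1+ ratio whose sign depended on the gate, with 1.03 at 7 dpi and 1.26 at 21 dpi in cells that held Pdgfra, and -1.07 at 7 dpi with Y-positive cells on both sides. The Gli1+ ratio of Thbs4 at 7 dpi was -0.06 in cells that held Pdgfra and 0.08 over all kept cells. In the latter it no longer opposed the Gli1- ratio. With Y-positive cells on both sides the 7 dpi ratios were further from 0, at -1.27 for Thbs4, -1.94 for Tnmd and -2.57 for Mkx. In cells that held Pdgfra the Gli1+ ratios of Tnmd at 7 dpi and Mkx at 21 dpi were -0.18 and -0.35. The Gli1+ ratio of Six2 at 21 dpi was -0.53 in cells that held Pdgfra and -0.43 over all kept cells. The Gli1+ uninjured library, which enters every Gli1+ ratio, held 3947 cells with Ptprc, and 61.5% of its gated cells carried Xist alone against 0% at 7 dpi. In the Gli1- sort 94.7% of gated cells carried Xist alone at 21 dpi, against 0% in the uninjured library. Time and sex thus cannot be told apart in the Gli1- ratios at 21 dpi. The part of the Ptprc cells and of sex in the differences was not tested.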

How the results depend on the processing

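At Gli1+ 7 dpi over uninjured 5 genes were 2-fold lower and 0 higher. This became 2 lower and 1 higher in Pdgfra cells alone (3 past 2-fold in all), 2 lower over all kept cells and 3 lower with the mean over cells. The share of all genes was not computed for the mean over cells. At Gli1+ 21 dpi over uninjured 4 lower and 0 higher became 1 lower and 2 higher both in Pdgfra cells alone and over all kept cells. All kept cells also gave 2 lower in place of 1 at Gli1- 21 dpi over uninjured, where the share of all genes was not computed. For uninjured Gli1+ over Gli1- cells they gave 1 lower in place of 0, where 12.8% of all genes were lower. The other counts in each direction stayed within 1.5 times under the alternatives that gave a value. Co-detection took the other side of expectation in Pdgfra cells alone for Tnmd with Egr2 at Gli1+ uninjured (log2 -0.12) and Egr2 with Chodl at Gli1+ 7 dpi (log2 -0.47), and the cause was not tested. Excluding cells with Cdh5, Ptprc, Epcam or Krt14 gave no value for both comparisons with Gli1+ 7 dpi, where under 50 such cells were left. The Gli1+ over Gli1- excess of uninjured cells was smallest over all kept cells, at log2 1.87 for Scx, 2.36 for Mkx, 2.37 for Tnmd, 1.50 for Thbs4, 1.85 for Six2 and 0.95 for Chodl. No paired analysis was possible because each group has 1 library, so that the groups compared share fewer than 2 replicate numbers. Six2 had 21 to 190 gated UMIs per library, and the spread between mice is unknown.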
